A study of Mus musculus with 56 samples.

Results

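Transcripts of 8 astrocyte genes were followed over the day in the mouse anterior hypothalamus: the gap junction channels Gja1 and Gjb6, the water channel Aqp4, the endfoot membrane protein Mlc1, glutamine synthetase (Glul), aldolase C (Aldoc), formyltetrahydrofolate dehydrogenase (Aldh1l1) and the intermediate filament Gfap. They were chosen by name as channels, enzymes and markers of astrocytes, and all 8 were found among the 17564 genes measured, through their NCBI Gene IDs. RNA was sequenced from 56 female C57BL/6J mice aged 9 weeks, with 1 mouse per library, after 7 days of time-restricted feeding with chow in 12 h light and 12 h dark. In day time-restricted feeding (DRF) food was given from ZT0 (zeitgeber time, lights on) to ZT12, and in night time-restricted feeding (NRF) from ZT12 to lights on. Each regimen had 4 mice at each of 7 time points 4 h apart, from ZT0 to ZT24, and the ZT24 mice were other animals than the ZT0 mice. No mice with unrestricted food were compared, so each difference is that of DRF relative to NRF.

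Astrocytes are coupled to each other by gap junctions, wrap blood vessels with endfeet that carry water and potassium channels, and take up the glutamate released by neurons. Glutamine synthetase joins this glutamate with ammonia, and the glutamine is passed back to neurons. Astrocytes in the hypothalamus hold a circadian clock, respond to hormones and nutrients, and take part in the timing of the suprachiasmatic nucleus.

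All 8 transcripts were measured in every mouse, and all 8 passed the filter on low values. Levels are read counts scaled to library size (CPM). The normalized library size was 29591266 to 34493345 reads, and the scarcest of the 8 transcripts, Aldh1l1, had 1679 to 3074 reads per mouse, so counting error was small beside the spread between mice. Per kilobase of exon, Glul stood at 407 CPM and Aldoc at 311 CPM, far above Mlc1 at 81.2, Gfap at 37.4, Gjb6 at 34.5, Aqp4 at 27.1, Gja1 at 19.0 and Aldh1l1 at 14.6 CPM per kilobase. Gfap and Gjb6 were closer to each other than their SD over the 56 mice (5.88 and 4.64 CPM per kilobase). Within a group of 4, mice differed least in Mlc1 (SD 0.07 on the log2 scale) and most in Gfap (SD 0.24). The neuropeptides and transcription factors that mark neurons of the suprachiasmatic and paraventricular nuclei were present in all libraries, with 9 of 9 tested and a summed level of 270.5 to 709 CPM in DRF and 305 to 732 CPM in NRF. In whole tissue, fewer cells of a type and less RNA per cell cannot be told apart.

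The libraries of DRF mice 3 and 4 at ZT16 stood apart from the other 54 in how expression followed the GC content of the transcript. The slope was 0.306 and 0.476 on the log2 scale per 10 percentage points of GC content in these 2 libraries, and -0.142 to 0.146 in the others. Within groups, the level of Gja1, Gjb6 and Aqp4, whose exons have at most 48.1% GC, ran against this slope over the 56 mice (Pearson's r = -0.72, -0.64 and -0.75), and the level of Mlc1, Aldoc, Aldh1l1 and Gfap, with 52.0 to 55.3% GC, ran with it (r = 0.52, 0.50, 0.55 and 0.40). Glul, with 50.4% GC, did not follow it in either direction (r = -0.06). These correlations are descriptions over mice that share libraries with all other genes, and they had the same sign over the other 54 mice except for Glul (r = 0.04). Results were also computed without these 2 mice, a comparison that was chosen after seeing the data, and the values are given beside those they bear on.

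**Figure D1:**
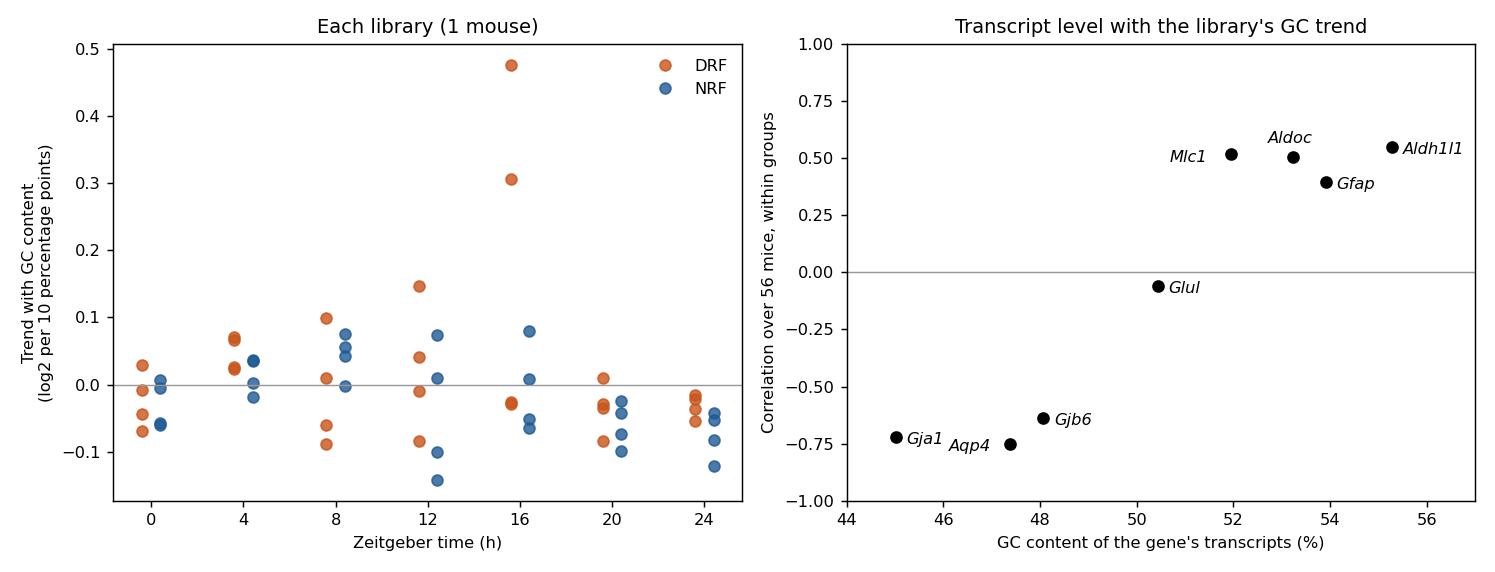
Left, slope of expression with GC content (log2 per 10 percentage points) in each of the 56 libraries against zeitgeber time, DRF in orange and NRF in blue. Right, for each of the 8 transcripts, the correlation over 56 mice between its level and this slope, both as deviations from the mean of the mouse's group, against the GC content of its exons. DRF mice 3 and 4 at ZT16 lie at 0.306 and 0.476, and the correlation is near 0 for Glul alone.

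Daily rhythm was tested within each regimen by combining JTK_CYCLE and the Lomb-Scargle periodogram, with a Benjamini-Hochberg adjusted p-value under 0.05 as the threshold. In DRF, 2 of the 8 transcripts, Glul and Gjb6, were rhythmic, where 0.911% of the 16245 transcripts tested were. In NRF, Glul, Gjb6 and Gja1 were rhythmic, 3 of 8, where 28.8% of all transcripts were. Gfap, Aqp4, Mlc1 and Aldoc had an adjusted p-value of 1 in both regimens. With the cosine test in limma, 4 of 8 passed in each regimen, Gja1, Gjb6, Glul and Aldh1l1, beside 4.01% of all transcripts in DRF and 27.8% in NRF. With time as a factor with no set shape, 6 of 8 passed in DRF, all but Aqp4 and Gfap (32.6% of all transcripts), and 4 of 8 in NRF, Gja1, Gjb6, Glul and Mlc1 (29.8%). The factor takes ZT0 and ZT24 as separate levels. A difference between these mice of the same clock phase can therefore pass as well, and a pass is not a call of daily rhythm. Mlc1 in NRF passed with the factor (limma, adjusted p = 0.022) and not with the limma cosine test (0.915). Without DRF mice 3 and 4 at ZT16, the test with time as a factor passed for 2428 transcripts in DRF, against 5250 with them, with Aldoc no longer among the 8 (adjusted p = 0.286), and for 6641 in NRF, against 4791, with 6 of the 8, Aldoc (0.0397) and Aldh1l1 (0.0256) added. In NRF no mouse was left out, and this test shares its estimate of spread with DRF. Without the mice numbered 3 or 4 it passed in DRF for 743 or 1279 transcripts and 3 of the 8, Gjb6, Glul and Aldh1l1. The limma cosine test in DRF passed for 646 transcripts, and for 387 without the 2 mice, with the same 4 of the 8.

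**Figure D2:**
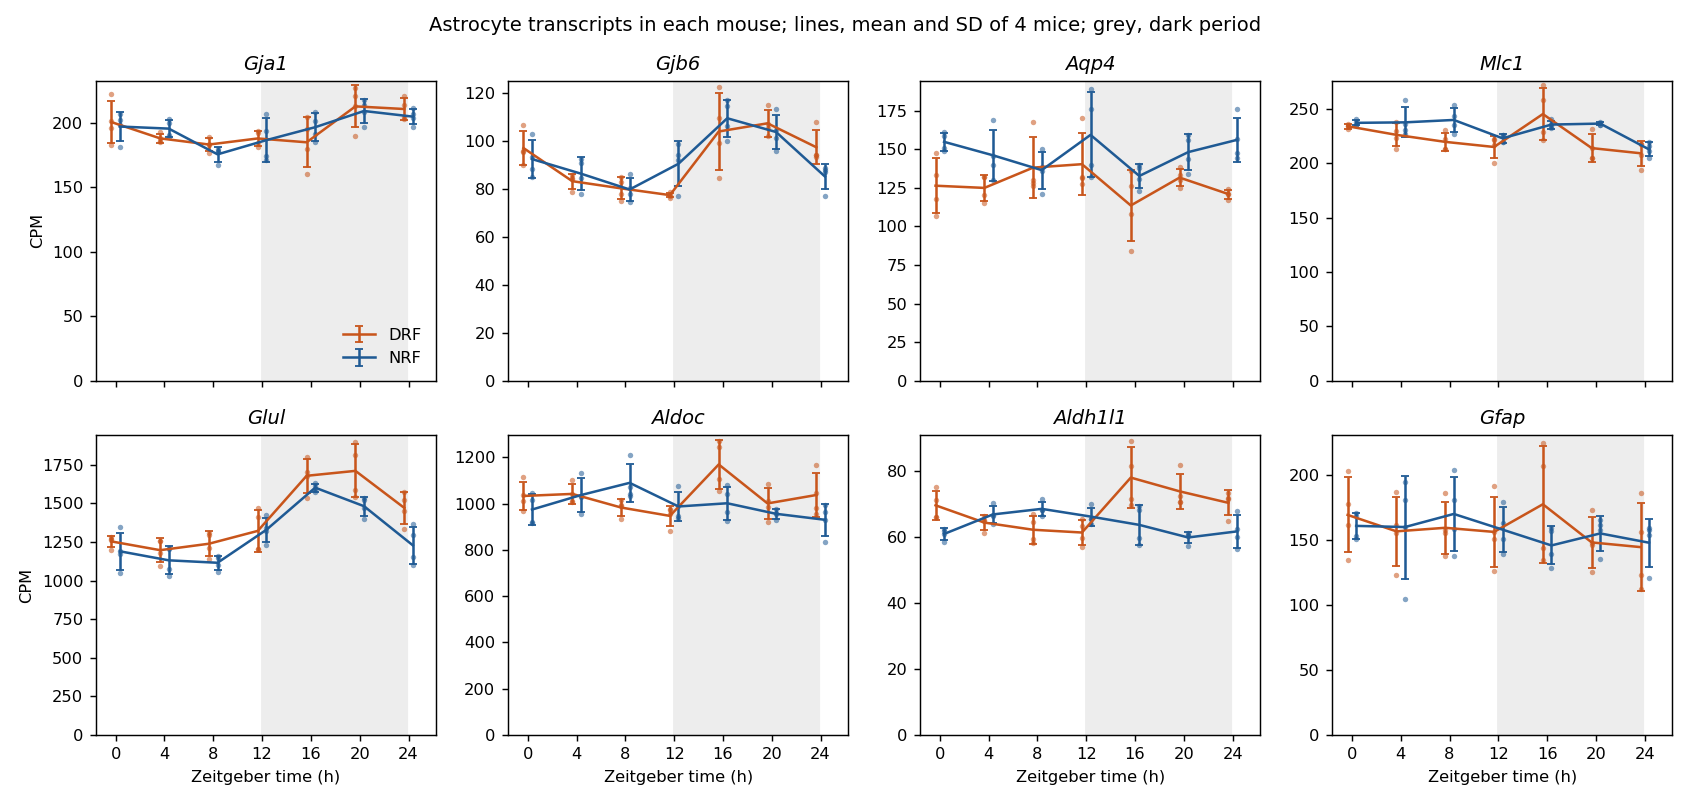
CPM of the 8 transcripts in each of 56 mice (points) against zeitgeber time, with the mean and SD of 4 mice (lines and bars), DRF in orange and NRF in blue. Grey marks the dark period. Glul and Gjb6 rise in the dark in both regimens, and Aldh1l1 is high in the dark in DRF and in the light in NRF.

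Glul, which encodes the enzyme that makes glutamine from glutamate, rose in the dark period in both regimens by about the same fold. In DRF the 4 mice had 1096, 1253, 1182 and 1257 CPM at ZT4 and 1544, 1812, 1900 and 1589 CPM at ZT20. In NRF they had 1103, 1159, 1056 and 1144 CPM at ZT8 and 1612, 1635, 1589 and 1574 CPM at ZT16. The mice at the high time points did not overlap with those at the low time points in either regimen. These time points had the lowest and highest group means of each regimen, so they were picked from the same values. The highest group mean was 1.43 times the lowest in DRF (1711 ± 172 CPM, SD, n = 4, over 1197 ± 75.8 CPM) and 1.44 times in NRF (1602 ± 26.8 over 1115 ± 45.8 CPM). With JTK_CYCLE and Lomb-Scargle combined, the adjusted p-value for rhythm was 8.34e-05 (DRF) and 2.48e-06 (NRF). The DRF call was not past the threshold without the mice numbered 2 (adjusted p = 0.0585), and it was without DRF mice 3 and 4 at ZT16 (adjusted p = 0.00056).

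The fitted 24-h cosine of Glul had an amplitude of 0.27 ± 0.04 (log2, SE) in DRF and 0.27 ± 0.03 in NRF. The peak fell at ZT18.0 ± 0.463 h (SE) in DRF and at ZT17.0 ± 0.363 h in NRF. The peak in DRF was therefore 0.991 ± 0.588 h later (0.951 h without the same 2 mice), and the amplitudes differed by 0.000352 ± 0.0475. The test of a difference in rhythm in limma did not pass (adjusted p = 0.41).

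Besides its rhythm, Glul had a higher mean level in DRF, by 0.12 ± 0.03 on the log2 scale averaged over the 7 time points, or 1.09-fold (limma, adjusted p = 0.00435). The DRF mean was the higher at 6 of 7 time points. At ZT20 the 4 DRF mice (1544 to 1900 CPM) lay above the 4 NRF mice (1472, 1521, 1536 and 1400 CPM), and the regimens overlapped at the other 6 time points. No time point passed singly, and the test over the 7 matched time points did (limma, adjusted p = 0.0136). The mean difference was not past the threshold without the mice numbered 3 (adjusted p = 0.0969) or 4 (adjusted p = 0.058). Without DRF mice 3 and 4 at ZT16 its adjusted p-value in limma was 0.0034.

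Glul lies on chromosome 1 from 153899944 to 153909723 (GRCm38, plus strand), and Gjb6 on chromosome 14 from 57123303 to 57133611 (minus strand). The promoters of both are shown because these transcripts had the clearest rhythm in both regimens. They are taken from RefSeq on GRCm38.p6, from 250 bases before to 50 bases after the transcription start, at chr1:153899679-153899978 (plus strand) for Glul and chr14:57133562-57133861 (minus strand) for Gjb6. Capitals mark AGGTCA on either strand. These letters are the core of the site bound by the clock's ROR and REV-ERB receptors, and they were searched without the bases beside them, so a match is not a whole site.
Glul: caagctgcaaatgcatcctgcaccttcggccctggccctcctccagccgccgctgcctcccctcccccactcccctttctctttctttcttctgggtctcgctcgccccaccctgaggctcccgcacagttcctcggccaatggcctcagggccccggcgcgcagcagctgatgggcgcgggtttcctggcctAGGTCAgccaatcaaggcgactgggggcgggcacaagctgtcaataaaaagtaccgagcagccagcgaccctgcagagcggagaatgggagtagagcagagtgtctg
Gjb6: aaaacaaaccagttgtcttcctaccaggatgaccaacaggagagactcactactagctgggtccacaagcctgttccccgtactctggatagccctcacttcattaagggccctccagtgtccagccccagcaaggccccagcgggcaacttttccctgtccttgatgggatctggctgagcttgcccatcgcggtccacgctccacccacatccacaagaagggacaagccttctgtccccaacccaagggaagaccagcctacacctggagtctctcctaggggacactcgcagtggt
The Glul promoter has AGGTCA at 57 bases before the start, and the Gjb6 window holds none of the motifs searched. Over 32851 mouse promoter windows of this length, 16.3% have AGGTCA on either strand, so a match like that in Glul is common. The E-box CACGTG is found in 7.15% of all windows, the D-box (TTATGTAA or TTACGTAA) in 1.06%, the STAT motif TTCNNNGAA in 8.30%, the glucocorticoid response element in 0.475% and the palindromic NFI motif in 0.0365%, all searched on both strands. The Aqp4 promoter is not reported here. RefSeq gave 8 windows for the other 7 genes, and 4 of these windows held at least 1 of these motifs. Those of Glul, Aldh1l1 and Gfap each had AGGTCA on either strand. The second window of Aldoc had STAT motifs at 124 and 83 bases before the start. Gfap also had a STAT motif, 2 bases before the start. The Gja1 and Mlc1 windows held none.

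Of the glutamate-glutamine cycle, 12 other genes were tested. None was rhythmic in DRF (0.911% of all transcripts), 8 of 12 were rhythmic in NRF (28.8%), and 2 of 12 had a rhythm that differed between regimens, a share near the 11.0% of all transcripts. Slc38a2, a neutral amino acid transporter that carries glutamine, had an amplitude of 0.41 in NRF with a peak at ZT17.9 and of 0.08 in DRF (limma, adjusted p of the difference in rhythm = 5.35e-05). Slc7a11, the cystine-glutamate exchanger, had 0.32 in NRF and 0.12 in DRF (adjusted p = 0.00108). Slc38a5, a glutamine transporter, was lower in DRF by 0.18 ± 0.05 on the log2 scale (limma, adjusted p = 0.00759), from a low level of 2.71 CPM. The glutamate transporters Slc1a2 and Slc1a3 had mean differences of 0.02 ± 0.03 and 0.03 ± 0.02. Without DRF mice 3 and 4 at ZT16 each difference was 0.05, and that of Slc1a3 passed (limma, adjusted p = 0.0219) while that of Slc1a2 did not (0.243). Mean levels of the 12 were then higher in DRF for 2 and lower for 2. With all mice these counts were 0 and 1 (5.58% and 4.84% of all transcripts). The median difference of the 12 was -0.01, beside -0.0023 over all transcripts.

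Gjb6 and Gja1 encode the main connexins of astrocyte gap junctions, and both were higher at ZT20, in the dark, than at ZT8, in the light, in both regimens. Gjb6 had the larger swing. In DRF its level was 77.3, 76.3, 78.6 and 77.1 CPM at ZT12 and 102, 107, 115 and 105 CPM at ZT20. In NRF it was 80.3, 74.6, 77.6 and 86.1 CPM at ZT8 and 106, 114, 99.9 and 117 CPM at ZT16. The low and high time points did not overlap, but they were picked from the same values as the lowest and highest group means of each regimen. The ratio of the highest to the lowest group mean was 1.39 in DRF and 1.37 in NRF, and the rhythm test gave adjusted p-values of 0.000368 and 0.000129 (JTK_CYCLE and Lomb-Scargle combined). Without the mice numbered 4 the DRF call was lost (adjusted p = 0.117), and without DRF mice 3 and 4 at ZT16 its adjusted p-value was 0.00138.

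The Gjb6 cosine had an amplitude of 0.24 ± 0.03 in DRF and 0.21 ± 0.03 in NRF, and its peak was at ZT20.0 ± 0.489 h in DRF and at ZT17.7 ± 0.567 h in NRF, 2.27 ± 0.749 h apart. At ZT12 the DRF mean was lower by 0.22 ± 0.08 on the log2 scale (limma, adjusted p = 0.136), and at ZT24 it was higher by 0.19 ± 0.08 (adjusted p = 0.449). The DRF mice at ZT12 lay at 76.3 to 78.6 CPM and the NRF mice at 76.9 to 98.8 CPM. At ZT24 the 4 DRF mice (93.4 to 108 CPM) lay above the 4 NRF mice (77.2 to 88.8 CPM). The difference in rhythm did not pass in limma (adjusted p = 0.0673), but did with each library's trends with level, length and GC content removed (adjusted p = 0.0393), without the mice numbered 1 (0.0455) or 2 (0.0474), and without ZT8 (0.0442). Without DRF mice 3 and 4 at ZT16 the peaks lay 1.97 h apart (adjusted p of the difference in rhythm = 0.0982). The mean level over the 7 time points differed by -0.0045 ± 0.029.

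Gja1 moved less. Its group means went from 183 ± 5.15 CPM (SD, n = 4) at ZT8 to 213 ± 16.2 CPM at ZT20 in DRF, and from 176 ± 5.83 to 209 ± 9.01 CPM at the same times in NRF. The 4 DRF mice at ZT20 had 190.1, 221, 227 and 213 CPM, and those of NRF had 208, 218, 197 and 214 CPM. All of these lay above the mice of the same regimen at ZT8, which reached 189 CPM in DRF and 180 CPM in NRF. ZT8 and ZT20 had the lowest and highest group means of Gja1 in both regimens, so they were picked from the same values. The rhythm of Gja1 passed in NRF (adjusted p = 0.000795) and not in DRF (adjusted p = 0.676) with JTK_CYCLE and Lomb-Scargle combined, and in both with the limma cosine test (adjusted p = 0.0166 in DRF and 0.00245 in NRF). The NRF call was lost without ZT8 (adjusted p = 0.144) or without the mice numbered 2 (0.0638). The limma cosine call was lost in DRF without the mice numbered 3 (0.132) or 4 (0.178) and without ZT8 (0.0612), ZT20 (0.0654) or ZT24 (0.13), and in NRF without the mice numbered 2 (0.103), without ZT8 (0.156) and with library trends removed (0.0634). The amplitude was 0.10 ± 0.03 in DRF and 0.10 ± 0.02 in NRF, with peaks at ZT21.9 ± 1.03 h and ZT20.9 ± 0.761 h, and the difference in rhythm did not pass (limma, adjusted p = 0.851). With each library's trends with level, length and GC content removed, the amplitude was 0.09 in DRF and 0.05 in NRF. Without DRF mice 3 and 4 at ZT16 the DRF peak was at ZT20.3, 0.593 h before that of NRF where it was 0.926 h after it with them, and the standard error of the shift was 1.28 h with them and 1.06 h without. Its mean level differed by 0.0017 ± 0.022 between regimens. Gja1 lies on chromosome 10 from 56377330 to 56402513 (plus strand).

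**Figure D3:**
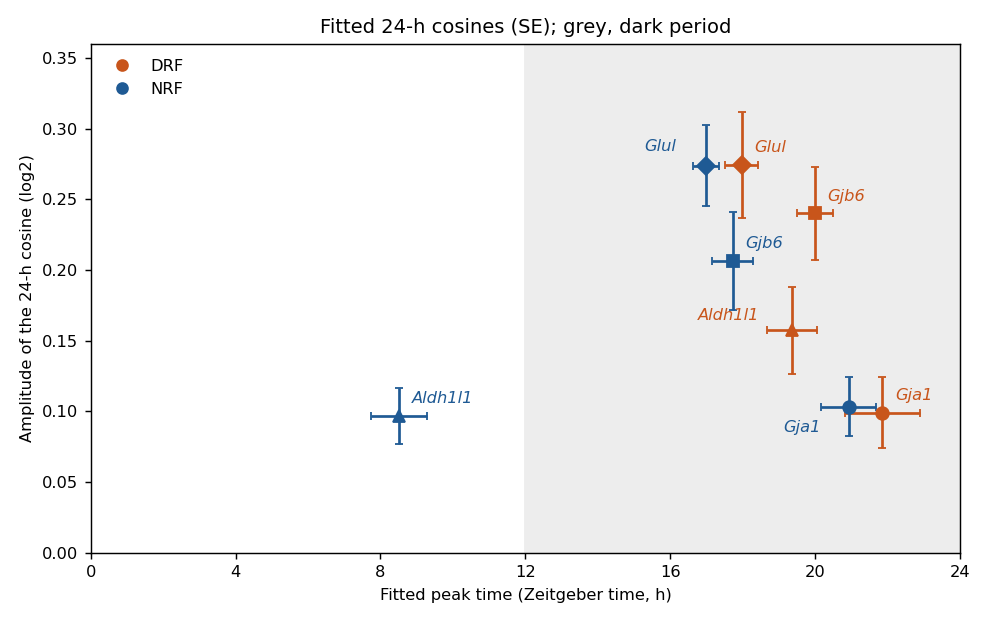
Amplitude (log2) against peak time (zeitgeber time, h) of the fitted 24-h cosine (28 mice per regimen), for the 4 transcripts that passed the limma cosine test in both, with standard errors, DRF in orange and NRF in blue. Glul, Gjb6 and Gja1 peak in the dark (grey) in both regimens, and Aldh1l1 peaks at ZT19.4 in DRF and at ZT8.51 in NRF.

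Of 5 other connexins and junction genes of glia, none was rhythmic in DRF and 2 were in NRF (28.8% of all transcripts). Gjc3, a connexin of oligodendrocytes, was lower in DRF by 0.13 ± 0.04 on the log2 scale (limma, adjusted p = 0.0328), and was not past the threshold without DRF mice 3 and 4 at ZT16 (adjusted p = 0.0653). The rhythm of Tjp1, a scaffold of junctions, differed between regimens (limma, adjusted p = 0.0292), with an amplitude of 0.15 in NRF and 0.02 in DRF. The median difference of the 5 was -0.10.

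Aqp4, the water channel of the endfeet, was lower in DRF than in NRF, and did not pass a rhythm test in either, except in NRF with ZT12 left out (adjusted p = 0.033, JTK_CYCLE and Lomb-Scargle combined). Averaged over the 7 time points it was lower by 0.21 ± 0.04 on the log2 scale, or 0.866 of the NRF level (limma, adjusted p = 0.00148). Over 28 mice each, the lowest, median and highest levels were 84.2, 128 and 170.1 CPM in DRF and 121, 145 and 189 CPM in NRF. The DRF mean was the lower at 6 of 7 time points, and at ZT8 the means were 138 ± 19.8 and 136 ± 12.0 CPM. At ZT0 the 4 DRF mice had 107, 118, 148 and 133 CPM and the NRF mice 158, 151, 149 and 161 CPM. At ZT24 the DRF mice had 121, 117, 124 and 121 CPM and the NRF mice 147, 145, 176 and 157 CPM. The regimens did not overlap at ZT0 and ZT24, around lights on, and overlapped at the other 5 time points.

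No single time point passed for Aqp4 (adjusted p = 0.195 at ZT24, where the difference was -0.36 ± 0.11), and the test over the matched time points passed (limma, adjusted p = 0.00851). The mean difference kept its direction in all alternatives tried, with an adjusted p-value of 0.0013 with library trends with level, length and GC content removed and of 0.00304 without DRF mice 3 and 4 at ZT16. It was just over the threshold without the mice numbered 4 (adjusted p = 0.0599).

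Of 8 genes of the Aqp4 anchoring complex and the endfoot, none was rhythmic in DRF and 4 were in NRF (28.8% of all transcripts). Kcnj10, the potassium channel that shares the endfoot with Aqp4, was also lower in DRF, by 0.12 ± 0.02 on the log2 scale (limma, adjusted p = 0.000541), and its rhythm differed, with a peak at ZT19.3 in NRF and at ZT13.4 in DRF (adjusted p = 0.00217). The dystroglycan gene Dag1 and the dystrobrevin Dtna, which anchor Aqp4, had differences of 0.04 ± 0.02 and 0.03 ± 0.01, neither past the threshold with all mice. Without DRF mice 3 and 4 at ZT16 the Dtna difference was 0.04 and passed (limma, adjusted p = 0.0337), and that of Dag1 did not (0.285). The median difference of the 8 was 0.02.

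Mlc1, a membrane protein of astrocyte junctions at the endfeet that takes part in ion and water balance, was also lower in DRF, by a smaller step. The mean difference was -0.06 ± 0.02 on the log2 scale (limma, adjusted p = 0.038), and the DRF mean was the lower at 6 of 7 time points. At ZT20 the 4 DRF mice had 232, 205, 205 and 214 CPM and the NRF mice 238, 235, 238 and 235 CPM. The regimens did not overlap there, and overlapped at the other time points. At ZT16 the direction was the other way, and DRF mice 3 and 4 had 272 and 259 CPM beside 222 and 229 CPM in mice 1 and 2. Without these 2 mice the mean difference had an adjusted p-value of 0.00299 and the ZT20 contrast one of 0.0392 (0.116 with them). The mean difference was not past the threshold with library trends removed (adjusted p = 0.067), with each mouse centred on its median (0.0974), without the mice numbered 2, 3 or 4 (0.101 to 0.161) or without ZT0, ZT4, ZT8, ZT12 or ZT20 (0.0654 to 0.199). Mlc1 lies on chromosome 15 from 88955884 to 88979007 (minus strand).

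Mlc1 also showed how far mice sampled at the same clock phase could lie apart. It had 231 to 236 CPM at ZT0 and 194 to 218 CPM at ZT24 in DRF, and 235 to 240.3 CPM at ZT0 and 205 to 219 CPM at ZT24 in NRF. These times are lights on in different mice, and they did not overlap in either regimen. Of the 8 transcripts, Mlc1 and Glul did not overlap between ZT0 and ZT24 in DRF, where 9.53% of all transcripts did not, and Mlc1 alone did not in NRF, where the share was 21.7%. Of the Mlc1 partners, the rhythm of Hepacam, which encodes the adhesion protein that binds Mlc1, differed between regimens (limma, adjusted p = 0.00375), with a peak at ZT18.6 in DRF and at ZT12.1 in NRF. The chloride channel Clcn2 did not pass (adjusted p = 0.121). Both were rhythmic in NRF (28.8% of all transcripts) and neither in DRF (0.911%). The median difference of the pair in mean level was 0.03.

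Aldh1l1, the folate enzyme widely used to mark astrocytes, was the only 1 of the 8 whose rhythm differed between the regimens, where 11.0% of the 16101 transcripts tested did (limma, adjusted p = 2.9e-05). It was high in the dark period in DRF and in the light period in NRF. In DRF its level was 67.0, 59.2, 64.3 and 57.9 CPM at ZT8 and 70.5, 70.4, 81.7 and 72.4 CPM at ZT20. In NRF it was 67.9, 71.4, 66.2 and 68.2 CPM at ZT8 and 60.2, 60.4, 57.3 and 61.2 CPM at ZT20. The ZT20 mice lay above the ZT8 mice in DRF and below them in NRF, with no overlap in either regimen. In NRF these times had the lowest and highest group means, picked from the same values.

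The fitted peak of Aldh1l1 was at ZT19.4 ± 0.68 h in DRF and at ZT8.51 ± 0.77 h in NRF, 10.8 ± 1.03 h apart, with amplitudes of 0.16 ± 0.03 and 0.10 ± 0.02. The rhythm within each regimen passed with the limma cosine test (adjusted p = 0.000249 in DRF and 0.0104 in NRF) and not with JTK_CYCLE and Lomb-Scargle combined on the deposited values (adjusted p = 0.0984 and 0.0945). In NRF the limma cosine call was lost without the mice numbered 2 (0.0506) or 3 (0.0627), without ZT8 (0.0963) or ZT20 (0.0645) and on the log2 scale of the deposited values (0.0629). The same combined test on log2(CPM + 1) gave 0.0298 and 0.00534, and on the deposited values it passed in DRF without mice 3 and 4 at ZT16 (0.0467) and in NRF without ZT16 (0.0047). The difference in rhythm passed in all settings tried. Its adjusted p-value was 0.000264 to 0.00249 with the mice of 1 number left out, 4.66e-06 without DRF mice 3 and 4 at ZT16 and 1.42e-06 with library trends removed. Without these 2 mice the amplitude in DRF was 0.13 and the peak was at ZT20.5.

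At matched times the 4 DRF mice lay above the 4 NRF mice at ZT0, ZT16 and ZT20. At ZT16 they had 69.5, 71.5, 81.5 and 89.1 CPM against 68.1, 57.4, 69.4 and 59.5 CPM, a difference of 0.29 ± 0.06 on the log2 scale (limma, adjusted p = 0.00334). The 2 highest of these mice are mice 3 and 4, and without them the difference was 0.15 (adjusted p = 0.39). At ZT20 the difference was 0.30 ± 0.06 (adjusted p = 0.0103), and without the same mice, which enter it only through the common estimate of spread, the adjusted p-value was 0.00321. Without the mice numbered 3 the ZT20 contrast did not pass (adjusted p = 0.271). At ZT8 and ZT12 the DRF mean was the lower, by 0.14 ± 0.06 and 0.11 ± 0.06, neither past the threshold. Averaged over the day, Aldh1l1 was higher in DRF by 0.09 ± 0.02 (limma, adjusted p = 0.0099), and this was lost without the mice numbered 3 (adjusted p = 0.131) or 4 (0.148) and without ZT0 (0.071), ZT16 (0.0663) or ZT20 (0.157). This mean difference was 0.07 without DRF mice 3 and 4 at ZT16 (adjusted p = 0.026).

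The promoter of Aldh1l1 is shown beside those of Glul and Gjb6 because its peak moved between the regimens where theirs lay in the dark in both. The RefSeq window on GRCm38.p6 is at chr6:90550543-90550842 (plus strand), inside the span of the gene on chromosome 6 from 90486427 to 90600203. Capitals mark AGGTCA of the other strand, which reads TGACCT here, at 178 bases before the start.
Aldh1l1: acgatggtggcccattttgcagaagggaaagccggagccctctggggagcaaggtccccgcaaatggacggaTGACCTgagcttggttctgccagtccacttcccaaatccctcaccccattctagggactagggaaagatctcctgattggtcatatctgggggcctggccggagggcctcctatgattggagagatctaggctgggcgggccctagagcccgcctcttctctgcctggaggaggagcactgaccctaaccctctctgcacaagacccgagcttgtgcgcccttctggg
Glul and Aldh1l1 both have these letters, at different distances from the start, and they are absent from the Gjb6 window. Any part of these letters in the rhythm of a transcript was not tested.

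Of 11 other genes of the folate cycle 10 were tested (Ftcd was too low). None was rhythmic in DRF and 4 were in NRF (28.8% of all transcripts), and 5 of 10 had a rhythm that differed between regimens (11.0%), or 3 of 10 without DRF mice 3 and 4 at ZT16. Mthfd1, the trifunctional enzyme that makes the substrate of Aldh1l1, had fitted peaks at ZT16.9 in DRF and at ZT5.55 in NRF (limma, adjusted p of the difference in rhythm = 0.00119), with amplitudes of 0.06 and 0.09. The median amplitude in DRF over all transcripts was also 0.06. Without DRF mice 3 and 4 at ZT16 the DRF amplitude of Mthfd1 was 0.04, with a peak at ZT17.3 (adjusted p of the difference = 0.00389). The mitochondrial enzyme Mthfd1l (adjusted p = 0.00066) and methionine synthase, Mtr (adjusted p = 0.0316), had amplitudes of 0.17 and 0.15 in NRF and of 0.05 and 0.02 in DRF. Without the same 2 mice the difference in rhythm of Mtr was not past the threshold (adjusted p = 0.0766). Mthfd1 and Mtr were also higher in DRF on average, by 0.06 ± 0.02 (adjusted p = 0.0127) and 0.08 ± 0.03 (adjusted p = 0.0373). The median difference of the 10 was 0.04.

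Aldoc, the aldolase of brain glycolysis and a marker of astrocytes, had fitted peaks at ZT19.2 ± 2.09 h in DRF and ZT8.36 ± 1.18 h in NRF, with small amplitudes of 0.06 ± 0.03 and 0.08 ± 0.03. These lay near the peaks of Aldh1l1, but the peak in DRF rested on mice 3 and 4 at ZT16, and without them it was at ZT23.6 ± 2.33 h, with an amplitude of 0.05 ± 0.02. The cosine test of Aldoc did not pass in either regimen with all mice (limma, adjusted p = 0.417 in DRF and 0.0723 in NRF). The difference in rhythm was just over the threshold (limma, adjusted p = 0.0593), and under it without DRF mice 3 and 4 at ZT16 (0.0448), with library trends removed (0.0104), with a 12-h harmonic added (0.0307) and without ZT16 (0.0332) or ZT20 (0.0255). At ZT8 the NRF mice had 1040.5, 1073, 1034 and 1212 CPM, all above the DRF mice at 1017, 989.6, 992 and 934 CPM. At ZT16 the DRF mice had 1108, 1054, 1243 and 1272 CPM and the NRF mice 1079, 963, 1040.3 and 924 CPM. The ZT16 groups overlapped, and the difference of 0.22 ± 0.07 passed (limma, adjusted p = 0.0151).

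As with Aldh1l1, the 2 highest DRF mice at ZT16 were mice 3 and 4, and without them the Aldoc difference was 0.11 (adjusted p = 0.597). The test over the matched time points then no longer passed (adjusted p = 0.0874, against 0.0223 with them). The mean over the day differed by 0.05 ± 0.02 (limma, adjusted p = 0.219). Aldoc lies on chromosome 11 from 78322968 to 78327781 (plus strand).

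Of 17 other genes of glycolysis and glycogen, none was rhythmic in DRF and 3 were in NRF (28.8% of all transcripts). The rhythm differed for 2 of 17 (11.0% of all transcripts), among them Pfkfb3, which makes the activator of phosphofructokinase, with an amplitude of 0.15 in NRF and 0.07 in DRF (limma, adjusted p = 0.00128). Pgk1 was lower in DRF by 0.06 ± 0.02 (adjusted p = 0.02), and the brain glycogen phosphorylase Pygb was higher by 0.05 ± 0.02 (adjusted p = 0.025), though not past the threshold without DRF mice 3 and 4 at ZT16 (0.0586). The housekeeping aldolase Aldoa had a difference of -0.01 ± 0.02 and Gapdh of -0.03 ± 0.03. With all mice, 1 of 17 was higher and 1 lower in mean level (5.58% and 4.84% of all transcripts). Without DRF mice 3 and 4 at ZT16, 0 were higher and 4 lower. The median difference of the 17 was 0.00 with all mice and -0.02 without the 2.

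Gfap, the filament that rises in reactive astrocytes, varied more between mice than between groups. Over 28 mice each, the lowest, median and highest levels were 112, 156 and 225 CPM in DRF and 104, 158 and 203 CPM in NRF. No test passed for Gfap: the adjusted p-value in limma was 0.773 for the difference in rhythm, 0.942 for the mean level and 0.893 over the matched time points. The mean difference was 0.01 ± 0.06 on the log2 scale, the largest standard error of the 8. The highest group mean, 177 ± 44.9 CPM (SD, n = 4) in DRF at ZT16, held DRF mice 3 and 4 at 225 and 207 CPM and mice 1 and 2 at 144 and 134 CPM. Gfap lies on chromosome 11 from 102887336 to 102900912 (minus strand). Of 4 other intermediate filaments, none was rhythmic in DRF, all 4 were in NRF (28.8% of all transcripts), and Nes, found in stem-like and reactive glia, differed in rhythm (limma, adjusted p = 0.000295), with peaks at ZT11.1 in DRF and ZT21.4 in NRF. Their median difference in mean level was 0.01.

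**Figure D4:**
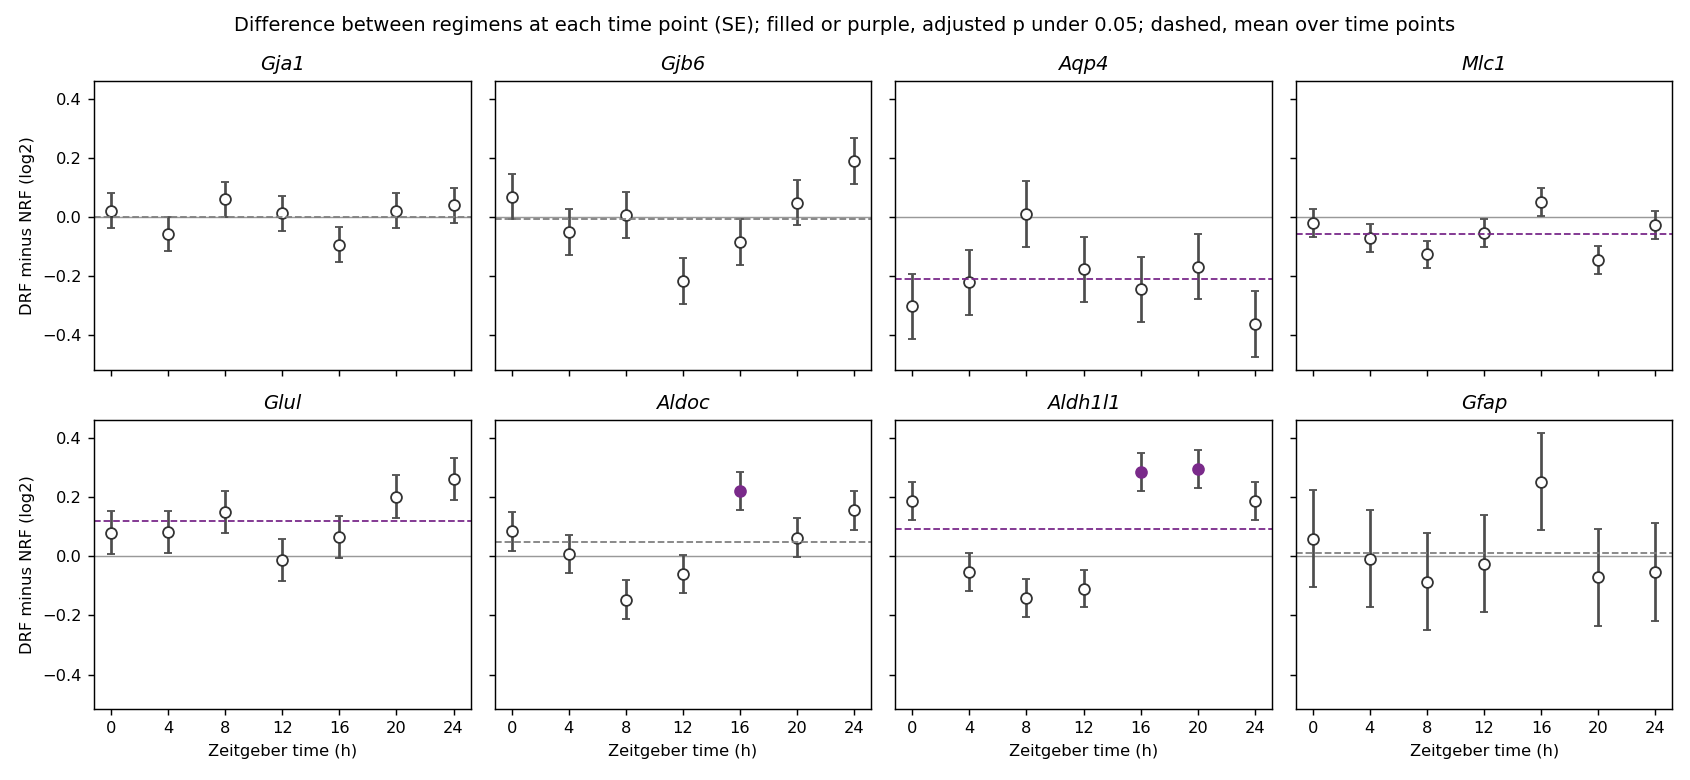
Difference DRF minus NRF (log2, with the standard error from limma) at each of 7 time points against zeitgeber time, for the 8 transcripts. Filled points and purple dashed lines (the mean over the time points) have an adjusted p-value under 0.05, and grey dashed lines do not. Aqp4 lies below 0 at 6 time points, Glul above 0 at 6, and Aldh1l1 above 0 at ZT0 and from ZT16 to ZT24 and below 0 from ZT4 to ZT12.

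Counted together, mean levels over the day were higher in DRF for 2 of 8 transcripts (Glul and Aldh1l1; 5.58% of all transcripts) and lower for 2 of 8 (Aqp4 and Mlc1; 4.84%), beside 10.4% of all transcripts in either direction. On the log2 scale of the deposited values, 1054 of 1462 transcripts called were higher in DRF, against 898 of 1678 here. The 4 differences of the 8 went both ways, and the median of the 8 was 0.01 on the log2 scale beside -0.0023 over all transcripts. Without the mice numbered 3 only Aqp4 passed (adjusted p = 0.0377), and without those numbered 4 none of the 8 did, the 4 keeping their directions. Over the matched time points 5 of 8 differed (limma F-test; 22.1% of all transcripts): Aldh1l1, Aqp4, Glul, Aldoc and Mlc1. Of these, Aldh1l1 alone passed in every setting tried, while Aqp4 and Glul were lost without the mice numbered 3 (adjusted p = 0.146 and 0.33) or 4 (0.124 and 0.117) and without ZT24 (0.0545 and 0.0803), Aldoc without the mice numbered 3 (0.156) or 4 (0.226), and Mlc1 without the mice numbered 2 (0.0557), 3 (0.538) or 4 (0.349) and in other settings. At single time points 3 contrasts passed, those of Aldh1l1 at ZT16 and ZT20 and of Aldoc at ZT16. The adjustment was made within each time point, so these calls are not a ranking across times. Glul at ZT24 did not pass (adjusted p = 0.0989), with a smaller unadjusted p in limma (0.000688) than Aldoc at ZT16 (0.00139).

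Over all transcripts the single contrasts passed for 4.52% at ZT0, 3.90% at ZT4, 0.143% at ZT8, 1.48% at ZT12, 20.1% at ZT16, 1.14% at ZT20 and 0.323% at ZT24. The ZT16 count, 3231 transcripts, was 31 without DRF mice 3 and 4. The 4 mice of the regimens did not overlap for 14.5% of all transcripts at ZT0, 14.1% at ZT4, 9.69% at ZT8, 6.34% at ZT12, 7.95% at ZT16, 8.20% at ZT20 and 7.73% at ZT24. Among the 8, the regimens did not overlap for Aqp4 and Aldh1l1 at ZT0, Aldoc at ZT8, Aldh1l1 at ZT16, Mlc1, Glul and Aldh1l1 at ZT20, and Gjb6 and Aqp4 at ZT24.

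Of 28 other astrocyte genes, 3 were rhythmic in DRF and 14 in NRF (0.911% and 28.8% of all transcripts), 6 differed in rhythm between regimens (11.0%), and the mean level was higher in DRF for 4 (5.58%) and lower for 3 (4.84%). These last 3 counts were 4, 4 and 6 without DRF mice 3 and 4 at ZT16. Prodh, proline dehydrogenase, was higher in DRF by 0.15 ± 0.03 (limma, adjusted p = 0.00275), and the astrocyte transcription factor Sox9 by 0.12 ± 0.03 (adjusted p = 0.00605). The serine transporter Slc7a10 and the claudin Cldn10 were lower, by 0.14 ± 0.03 (adjusted p = 0.00168) and 0.13 ± 0.03 (adjusted p = 0.00197). The rhythm of Ttyh1 (adjusted p = 0.000569), Ndrg2 (0.0211), Slc7a10 (0.00851) and Prodh (5.67e-05) differed between regimens. Their median difference was 0.00, and like the 8 transcripts they differed in both directions.

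**Figure D5:**
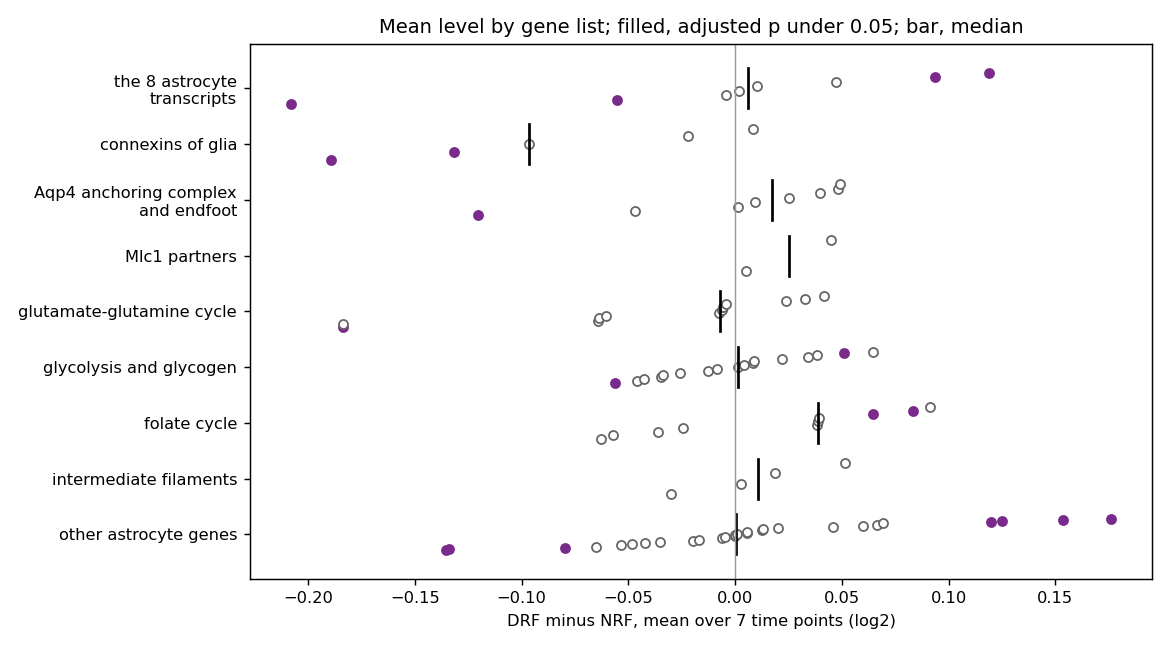
Mean difference DRF minus NRF over 7 time points (log2) of each gene, by list. Filled points have an adjusted p-value under 0.05 in limma, black bars are list medians, and the height within a list only spreads the points. Members of most lists lie on both sides of 0, and the connexin list has a median of -0.10.

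Markers of other cell types were read beside these lists. Of 6 oligodendrocyte markers, 3 were lower in DRF, among them Mog by 0.15 (limma, adjusted p = 0.0438) and Cnp by 0.12 (0.0399), with a median of -0.13 and a summed level of 3965 to 8106 CPM in DRF and 5182 to 8499 CPM in NRF. These moved in the same direction as Aqp4, Mlc1 and Gjc3, and their part in those differences was not tested. Of 6 neuronal markers 1 was higher and 2 were lower (median -0.03), of 4 oligodendrocyte precursor markers 1 was higher and 1 lower (0.01), of 6 microglial markers 2 were lower (-0.07), and of 5 endothelial markers 1 was lower (-0.04). Over all transcripts, 5.58% were higher in DRF and 4.84% lower. Without DRF mice 3 and 4 at ZT16, 4 oligodendrocyte markers and 1 microglial marker were lower, and the other counts were the same. No marker of tanycytes (5 tested), ependymal cells (4), choroid plexus (4), pituitary (1 of 4 tested) or the suprachiasmatic and paraventricular neurons (9) passed for the mean level, and no marker of any list was at 0 in all mice.

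The profiles of the 8 transcripts over the 14 groups fell into no common course. Over the 28 pairs the median Pearson's r of the group means was 0.0938. Gjb6 with Glul (r = 0.81) and Aldoc with Aldh1l1 (r = 0.80) were most alike, and Aqp4 with Aldoc (r = -0.75) least. These pairs had r = 0.85, 0.71 and -0.61 without DRF mice 3 and 4 at ZT16, and then Glul with Gfap (r = -0.75) were least alike. Within groups, over 56 mice, the highest correlation was that of Gja1 with Gjb6 (r = 0.66), followed by Gja1 with Aqp4 (r = 0.63), and the lowest that of Gja1 with Aldoc (r = -0.51). Over the other 54 mice these were 0.55, 0.52 and -0.42, and Glul with Aldh1l1 was the highest (r = 0.63). Gja1, Gjb6 and Aqp4 ran against the GC slope of the library and Aldoc with it, as given above, and the part of the slope in these correlations was not tested.

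Among all transcripts, those whose 14 group means were most like a member were, for Glul, Tns3 (r = 0.96), Fam107a (0.95) and Paqr8 (0.94), and Fam107a was also close to Glul within groups over the 56 mice (r = 0.84). For Aldoc they were Gstm1 (r = 0.94), Lrrc14 (0.93) and Zfp346 (0.92), with r = 0.77 within groups for the glutathione transferase Gstm1. Gja1 was most like the potassium channel Kcnj16 (r = 0.91), the receptor Lpar4 (0.91) and Folh1 (0.90), and Gjb6 like the mitochondrial kinase Ak3 (0.91), Hacd2 (0.89) and Sspo (0.88). For Aqp4 the closest were Exosc9 (r = 0.88), Ublcp1 (0.86) and the pericyte gene Rgs5 (0.85), for Mlc1 Tubb4b (0.95), Cyb561 (0.94) and Rnf113a2 (0.94), for Aldh1l1 Ogdhl (0.90), Sun2 (0.90) and Slc25a34 (0.89), and for Gfap Krt17 (0.90), 3110082I17Rik (0.90) and Pbx4 (0.89). Without DRF mice 3 and 4 at ZT16, 16 of these 24 were again among the nearest 3, and r with Gfap was 0.51 for Pbx4 and 0.76 for Krt17. With 14 points and 16101 transcripts, values of this size are a ranking and carry no test.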

How the data were processed

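The authors extracted RNA with TRIzol, selected poly(A) RNA, sequenced it, aligned the reads to GRCm38.p6 (HISAT2, Bowtie2), counted with RSEM and normalized with TMM in edgeR. The deposited values, 1 score per gene and mouse named TPM, are log2(CPM + 1) over the gene's length, scaled so that each mouse has nearly the same sum. Dividing out the length (GENCODE M21 exons) and scale gave log2(CPM + 1), with a median relative deviation of 1.95e-08 from the predicted steps over 1188 genes, and whole reads within 0.1 in at least 80% of mice for 15707 of 17564 genes. For the 8 genes reads were whole in all mice. The Aqp4 length, 5082 bases, was itself found from this fit. Symbols were matched for 17456 genes.

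For rhythm, the deposited values (1 or more in 80% or more of the 56 mice) were tested with JTK_CYCLE and Lomb-Scargle for periods of 20 to 28 h in Python 3.11.15, since MetaCycle, the study's tool, was not at hand, and combined by Fisher's method. limma 3.58.1 (R 4.3.3) was fitted on log2(CPM + 1) over all 56 mice, for the difference in 24-h cosine terms, the mean level and the matched time points. No count test was run, although whole reads were recovered for most genes. Single contrasts are two-sided. All p-values are Benjamini-Hochberg adjusted over all transcripts, within each time point for single contrasts, unless called unadjusted. Standard errors of amplitude and peak are from least squares.

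Scripts were checked on simulated data. The 8 genes and all lists were chosen with earlier results of these data known. Besides the 8, the text names the 3 transcripts most like each and, per list, up to 4 genes with the smallest p for the difference in rhythm and for the mean level past the threshold. Other genes named from the lists (Slc1a2, Slc1a3, Dag1, Dtna, Clcn2, Aldoa, Gapdh and the oligodendrocyte markers) were named after their values were seen, and some genes of the lists are counted but not reported singly here. Fold changes are on the log2(CPM + 1) scale. The closing part gives the effect of other scalings, filters, tests and left-out mice and times. The 84 pairs of mice of 1 group correlated at 0.987 or more, and no library was a duplicate.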

Additional observations from a re-analysis of the deposited data

Results flagged for a closer look

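In 6 of 112 groups of 4 mice 1 mouse lay far from the other 3 (5.36%, where chance gives about 1 in 20, by Dixon's test). These were the lowest Gja1 mouse in NRF at ZT8 (167 CPM), the highest Gjb6 mouse in DRF at ZT24 (108 CPM) and the lowest in NRF at ZT24 (77.2 CPM), the highest Aqp4 mice in DRF at ZT8 (168 CPM) and ZT12 (170.1 CPM), and the lowest Gfap mouse in NRF at ZT24 (120.5 CPM).

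The rhythm of these transcripts differed between DRF and NRF (limma, adjusted p in parentheses): Aldh1l1 (2.9e-05), Slc38a2 (5.35e-05), Prodh (5.67e-05), Nes (0.000295), Ttyh1 (0.000569), Mthfd1l (0.00066), Slc7a11 (0.00108), Mthfd1 (0.00119), Pfkfb3 (0.00128), Kcnj10 (0.00217), Hepacam (0.00375), Slc7a10 (0.00851), Ndrg2 (0.0211), Tjp1 (0.0292) and Mtr (0.0316). In 28 mice per regimen, Aldh1l1 peaked in the dark in DRF and in the light in NRF.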

How the results depend on the processing

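For the 8, no difference between regimens that passed its test changed direction in any setting. For rhythm within a regimen the direction was not compared. The Gja1 peak shift of 0.926 h, which is within its standard error of 0, ranged from -0.666 to 2.35 h. The Aldh1l1 shift of 10.8 h had -11.2 and 12.0 h as its lowest and highest values, where 12 h later and 12 h earlier are the same phase. The mean differences of Gja1, Gjb6 and Gfap, which did not pass, changed sign in some settings. Of 16245 transcripts, 148 were rhythmic in DRF and 4672 in NRF. Lomb-Scargle alone gave 0 in each (218 and 3318 at an unadjusted p under 0.05), with 0 of the 8, and JTK_CYCLE alone gave 83 in DRF. The limma cosine test gave 646 transcripts and 4 of the 8 in DRF, and time as a factor 5250 and 6, against 387 and 4, and 2428 and 5, without DRF mice 3 and 4 at ZT16. With the mice of 1 number or 1 time point left out, these DRF counts were 168 to 2521 (3 to 4 of the 8) and 743 to 5908 (3 to 6), and in NRF, where 4480 and 4791 passed, 2422 to 5235 (2 to 5) and 1838 to 6187 (2 to 6). The difference in rhythm held for 1776 transcripts and 1 of the 8, and for 2822 and 3 with library trends removed, an alternative that also changes how many transcripts are tested. It held for 2131 transcripts and 2 of the 8 with a 12-h harmonic, and for 1701 and 2 without DRF mice 3 and 4 at ZT16. With mice of 1 number or 1 time point left out in the same way, rhythmic transcripts numbered 39 to 483 in DRF (1 to 2 of the 8) and 2280 to 4613 in NRF (2 to 4). The difference in rhythm then held for 417 to 2069 transcripts (1 to 2 of the 8), the mean level, 1678 in the full data, for 385 to 2328 (0 to 4), and the matched time points, 3566, for 466 to 4128 (1 to 5). The lowest of these 3 counts of transcripts were all without the mice numbered 3, and the cause was not tested.

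Mice of the 2 regimens share replicate numbers. Over 28 same-numbered pairs the deviations from the group means had a median r of -0.0138. The lowest r was -0.492, and 4 pairs were over 0.1. These values show no general pairing of same-numbered mice, and whether a number stands for a batch was not tested. With the number as a replicate block, 1715 transcripts differed in rhythm, 1727 in mean level and 3573 at matched time points, with 1, 4 and 4 of the 8. Counting error was small beside the spread between mice. With 4 mice per group, differences at a single time point as large as 0.36 (Aqp4 at ZT24) did not pass.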
